A study of Homo sapiens with 4 samples.

Results

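The cytosolic ribosomal protein genes encode the proteins of the ribosome outside mitochondria. They were taken as genes whose symbol is RPL or RPS followed by a number and at most 1 letter A or X, together with RPLP0, RPLP1, RPLP2 and RPSA, with pseudogenes left out. The rule used symbols and no measured change. It held 77 genes of the RefSeq gene table, and 59 of them had a probe set of their own on the array, 35 of the large and 24 of the small subunit, out of 19798 genes measured. The other 18 are not analysed here.

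A ribosome is built from a small subunit, which reads the messenger RNA, and a large subunit, which joins amino acids and releases the growing chain through a tunnel. Messengers of ribosomal proteins are among the most abundant of a growing cell, and most begin with a cytosine followed by an unbroken run of pyrimidines, the terminal oligopyrimidine (TOP) motif, through which the kinase mTORC1 and the RNA-binding protein LARP1 control their translation. Their transcription and that of the factors that assemble ribosomes is also raised by the transcription factor MYC.

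Total RNA came from HCT-116 dicer- cells, a line from a human colon carcinoma in which Dicer, which processes microRNA precursors, is altered, and all arrays share this background. One array held cells 24 h after transfection with 10 nM of the segmented miR-124 duplex, labelled G10.12/P, and 1 array held cells at 24 h after 10 nM of the intact duplex, labelled G/P. The other 2 arrays held mock-transfected cells at 24 h. The series asks whether a microRNA keeps its activity when its guide strand is segmented; miR-124 is abundant in neurons. Each duplex was on 1 array, so its spread was taken to equal that of the mock pair, and nothing in the labels says whether the mock arrays were separate cultures. The p-values therefore rest on the spread between the 2 mock arrays, shared across genes by limma, and that spread may be technical. They speak of these 4 arrays alone.

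Across genes, the mock arrays correlated with r = 0.997, and all 4 arrays had nearly the same distribution, with medians of 42.6 to 46.3 intensity units over probe sets. DICER1 had log2 intensities of 10.80 with the segmented duplex, 11.13 with the intact duplex, and 11.21 and 11.28 in mock, and whether its probes read the altered part of the gene is not known here. EPCAM, an epithelial surface protein, had 13.05 with the segmented duplex, 13.05 with the intact duplex, and 13.01 and 13.06 in mock, near the top of the range on every array. It was the brightest of 10 measured colon epithelial markers, whose median level was 6.78, against 6.76 over all genes. Some were dim, with mock means of 3.18 for TSPAN8 and 3.34 for LGALS4. PTPRC, the pan-leukocyte marker, had 3.74 with the segmented duplex, 3.46 with the intact duplex, and 3.28 and 3.66 in mock. Of 10 measured colon epithelial markers 3 were higher with the intact duplex, and of 11 measured markers of other cell types 1 was higher and 1 lower, where 14.5% of all genes were higher and 10.4% lower with that duplex. COL1A1, a fibroblast collagen, had 9.21 with the segmented duplex and 9.76 with the intact duplex, against 8.71 and 8.41 in mock, and GFAP, an astrocyte filament, was near the low end of the arrays. The part of these genes in the results below was not tested. In bulk RNA, fewer cells of a type and less RNA per cell cannot be told apart.

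The first bases of the messengers are shown because the TOP motif is the feature by which these genes are usually grouped. The windows cover 10 bases before and 20 bases after the annotated transcript start, from RefSeq on GRCh38.p14, 5′ to 3′ on the gene's strand, with the motif searched in capitals. It was a C followed by at least 4 further C or T, on the gene's strand only, starting within 5 bases of the annotated start. RPL28, RPL26, RPL19, RPS26 and RPS15 are shown as members that were lower with the intact duplex, and RPL35A, RPS16, RPS25 and RPS3 as members with levels at the top of the arrays that stayed near mock.
RPL28, chr19:55385922-55385951 (+): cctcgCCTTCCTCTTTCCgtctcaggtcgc
RPL26, chr17:8383174-8383203 (-): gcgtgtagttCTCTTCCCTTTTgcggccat
RPL19, chr17:39200313-39200342 (+): agctctttCCTTTCgctgctgcggccgcag
RPS26, chr12:56041908-56041937 (+): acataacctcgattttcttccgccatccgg
RPS15, chr19:1438386-1438415 (+): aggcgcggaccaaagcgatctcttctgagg
RPL35A, chr3:197950180-197950209 (+): gggcctcgtCCTTCTCTTaccgccatcttg
RPS16, chr19:39435930-39435959 (-): ccctagCTTTCCTTTTCCggttgcggcgcc
RPS25, chr11:119018324-119018353 (-): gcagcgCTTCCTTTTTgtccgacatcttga
RPS3, chr11:75399508-75399537 (+): cgagccaCTTCCTTTCCTTTCagcggagcg

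The motif was found for 42 of the 49 members that have a start in the table (85.7%), against 6886 of all 27305 genes in it (25.2%). RPS26, RPS15, RPL6, RPL17, RPL27, RPS4X and RPS29 have no such run starting within 5 bases of the annotated start, although the printed windows of RPS26 and RPS15 hold one farther downstream. RPL19 has 2 annotated starts, and the one with the longer run is printed. Of the members that were lower with the intact duplex, 3 of the 5 with a start had the motif (60.0%). No match says only that no such run starts within those bases.

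Most ribosomal protein genes stood at the top of the intensity range and differed little between arrays. Their median log2 level was 13.18, against 6.76 over all genes, and 56 of 59 lay above the median gene. Intensities of different probe sets are not amounts of RNA, so these levels rank signals only. RPL35A, a large subunit protein, had 14.42 with the segmented duplex, 14.41 with the intact duplex, and 14.39 and 14.43 in mock. RPS15A, a small subunit protein, had 14.42 with the segmented duplex, 14.41 with the intact duplex, and 14.44 and 14.34 in mock. These 2 genes held the highest values of the arrays, whose maxima were 14.41 to 14.44, and no duplex value of either lay outside the pair of mock values.

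RPS16, RPS3 and RPS25 followed, with mean levels of 13.92, 13.88 and 13.88. The lowest levels were those of RPS28 (6.86), RPL37 (7.39), RPL7A (6.42), RPL19 (4.66) and RPL21 (2.58). The probe sets that stand for RPL7A, RPL19 and RPL21 are assigned to a sequence other than a RefSeq transcript. RPL21 also had the widest gap between mock arrays, the second minus the first being -0.62, and was the 1 member (1.69%) at least 1.5-fold apart between them, against 3.23% of all genes. The next widest gaps were RPL23 (0.29) and RPS3A (0.27).

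**Figure D1:**
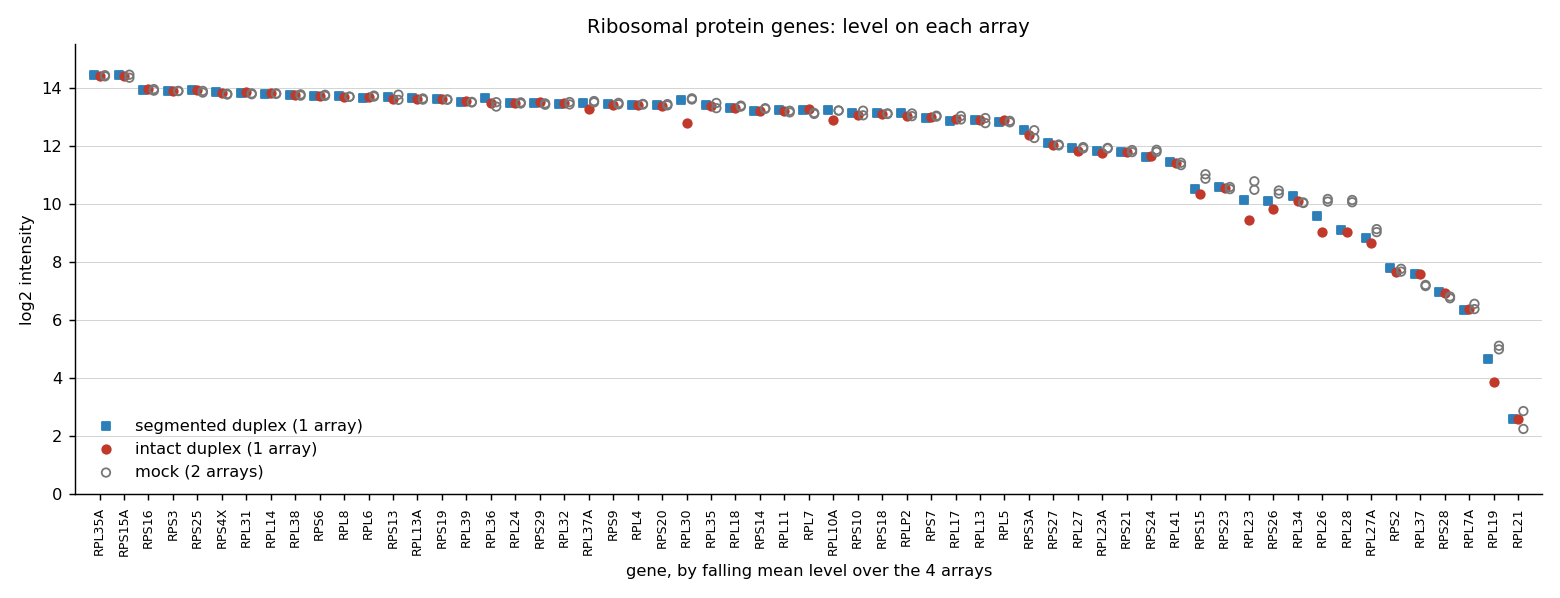
Log2 intensity of the brightest probe set of each of the 59 ribosomal protein genes, ordered by mean level, with blue squares for the segmented duplex (1 array), red points for the intact duplex (1 array) and open circles for mock (2 arrays). Most genes lie above 13 with their points on top of each other, while RPL30, RPL23, RPL26, RPL28 and RPL19 have the intact point well below both mock points.

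With the intact duplex, 7 of 59 ribosomal protein genes were lower than mock and none was higher (limma, Benjamini-Hochberg adjusted p under 0.05), which is 11.9%. Of all 19798 genes, 24.9% passed in either direction, 10.4% lower and 14.5% higher, so the share of members lower was near that of all genes. The median difference of the members was -0.013 on the log2 scale, against 0.017 over all genes. The members were lower by at least 1.5-fold than both mock arrays in 5 cases (8.47%), against 9.52% of all genes lower and 23.2% in either direction.

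RPL30, a large subunit protein that also regulates its own messenger in yeast, was the only one of the 7 at the top of the range. It had 13.57 with the segmented duplex, 12.79 with the intact duplex, and 13.59 and 13.63 in mock. Only the intact array was low, with a difference from mock of -0.82 ± 0.12 on the log2 scale (SE, limma adjusted p = 0.0208). RPL30 has 1 probe set, assigned to a sequence other than a RefSeq transcript.

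RPL23, a large subunit protein that can bind MDM2, had 10.121 with the segmented duplex, 9.44 with the intact duplex, and 10.48 and 10.78 in mock. Both duplex arrays lay below both mock arrays, and the intact difference of -1.19 ± 0.18 passed the test (SE, limma adjusted p = 0.0207), while the segmented difference was -0.51 (limma adjusted p = 0.175). A second, dim probe set of RPL23 had an intact difference of -0.04.

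RPL26, which lies at the rim of the exit tunnel, had 9.58 with the segmented duplex, 9.04 with the intact duplex, and 10.17 and 10.08 in mock. The intact array was lowest and the segmented array lay between it and mock. The intact difference was -1.08 ± 0.13 (SE, limma adjusted p = 0.0139) and the segmented difference -0.54 (limma adjusted p = 0.0937).

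RPL28, a large subunit protein, was the one member that passed the test with both duplexes, and it was lower with each. It had 9.09 with the segmented duplex, 9.03 with the intact duplex, and 10.13 and 10.05 in mock. Both duplex arrays were about 1 log2 unit below both mock arrays and did not differ beyond their error, the segmented minus intact difference being 0.06 ± 0.14 (SE). The difference from mock was -1.001 with the segmented duplex (limma adjusted p = 0.0412) and -1.06 ± 0.12 with the intact duplex (SE, limma adjusted p = 0.0139). Its other 2 probe sets disagreed, with segmented differences of -1.10 and 0.30 and intact differences of -0.98 and -0.31.

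RPL19, a large subunit protein at the tunnel exit, had 4.67 with the segmented duplex, 3.87 with the intact duplex, and 4.99 and 5.12 in mock. The intact array was lowest and the difference from mock was -1.18 ± 0.13 (SE, limma adjusted p = 0.013). Its 1 probe set reads below the median gene of these arrays.

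Of the small subunit, RPS15, a protein of the subunit's head, had 10.50 with the segmented duplex, 10.32 with the intact duplex, and 11.02 and 10.86 in mock, with an intact difference of -0.62 ± 0.14 (SE, limma adjusted p = 0.0482). RPS26, a Diamond-Blackfan anemia gene whose protein sits near the exit of the messenger, had 10.11 with the segmented duplex, 9.80 with the intact duplex, and 10.46 and 10.35 in mock, with an intact difference of -0.60 ± 0.13 (SE, limma adjusted p = 0.0449). Both duplex arrays lay below both mock arrays for each of these genes, and both passed the test narrowly. A second probe set of RPS15, with a mock mean of 8.29, had differences of 0.003 with the segmented and 0.06 with the intact duplex. The second probe set of RPS26, with a mock mean of 6.47, had -0.41 and -0.46.

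These calls depended on which probe sets stood for a gene. With the median of a gene's probe sets 3 members were lower with the intact duplex, RPL19, RPL30 and RPL27A, and RPL23, RPL26, RPL28, RPS15 and RPS26 did not pass. In that setting 24.9% of all genes passed in either direction. RPL19 and RPL30 have 1 probe set each, so the median could not change their differences. The second probe sets of RPL23 and RPL26 were dim, with mock means of 4.20 and 2.29, so for these genes the median mixed a brighter and a dim signal. The dim probe set of RPL26 had an intact difference of 0.12. With a trended, robust prior 12 members passed, 10 lower and 2 higher (RPL37 and RPL7), where 39.4% of all genes passed.

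The largest positive difference was that of RPL37, a large subunit protein. It had 7.58 with the segmented duplex, 7.59 with the intact duplex, and 7.17 and 7.21 in mock. Both duplex arrays were above both mock arrays, but neither difference passed, with 0.39 for the segmented duplex (limma adjusted p = 0.147) and 0.41 for the intact duplex (limma adjusted p = 0.0896). RPL7 (0.15) and RPS28 (0.14) came next with the intact duplex, and RPL34 (0.22) and RPL36 (0.20) with the segmented duplex, none past the test.

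**Figure D2:**
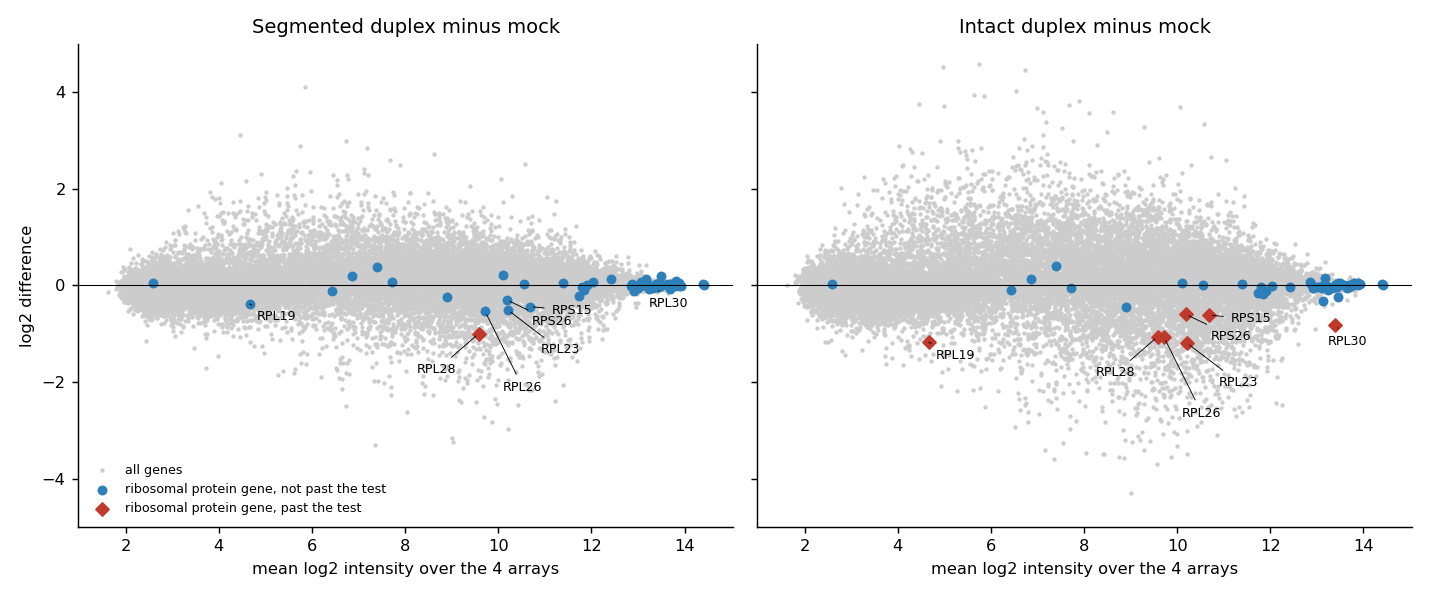
Log2 difference from mock (vertical axis) against mean log2 intensity over the 4 arrays (horizontal axis), with grey points for all genes and larger symbols for the 59 ribosomal protein genes, red where past the test. Of the 7 red genes with the intact duplex only RPL30 lies above 13, and with the segmented duplex only RPL28 passed.

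The segmented duplex left 1 member past the test, RPL28 (1.69%), against 5.99% of all genes in either direction, 2.68% lower and 3.31% higher. The median difference of the members was 0.004, against 0.012 over all genes. RPL28 did not pass with the mean or the median of its probe sets, and 7 members passed with a trended, robust prior, where 27.4% of all genes did. The other 6 members that were lower with the intact duplex were also below the mock mean with the segmented duplex, but none passed; the 2 comparisons share the mock arrays, so this is given as values only. RPL28 was likewise the one member at least 1.5-fold below both mock arrays (4.89% of all genes lay that far below, and 12.3% in either direction).

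Between the duplexes, segmented minus intact, 0 of 59 members and 0.0% of all genes passed the adjusted threshold. At an unadjusted limma p under 0.05 there were 4 members, RPL30, RPL19, RPL26 and RPL23 (6.78%), against 16.5% of all genes. RPL30, with 0.78 ± 0.14, RPL19, with 0.79 ± 0.15, and RPL23, with 0.68 ± 0.20 (SE), were at least 1.5-fold higher with the segmented duplex (5.08%), against 9.98% of all genes in either direction and 5.02% higher. This comparison has 1 array on each side, and its error rests on the mock pair alone.

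The differences of ribosomal protein genes were mostly smaller than those of genes in general, which is given as a description. Those of 43 of 59 (72.9%) lay within 0.1 log2 units, about 1.07-fold, with the segmented duplex, and 43 of 59 (72.9%) with the intact duplex, against 24.9% and 19.1% of all genes. The same was true between the mock arrays, where 44 of 59 (74.6%) lay within 0.1, against 41.6% of all genes. The share within 0.1 is therefore high in mock as well, and among other genes the median size of the mock gap was 0.037 at a mean level of 13 or more, against 0.167 below 9. For that reason members were also set beside other genes within bands of level.

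At a mean level of 11 or more, 1 of 45 members passed with the intact duplex (2.22%), against 22.1% of 2235 other genes. The median size of the difference in that band was 0.031 for members and 0.262 for other genes with the intact duplex, and 0.032 and 0.177 with the segmented duplex. Levels within it were not matched, since 34 of its members but only 90 of its other genes lay at 13 or more. Between 11 and 13, 0 of 11 members passed with the intact duplex, against 23.0% of 2145 other genes. The median sizes there were 0.031 and 0.276. Above 13, where 34 members sat beside 90 other genes, 1 member and 0 other genes passed with the intact duplex, and the median sizes were 0.031 and 0.094. At 13 and above signals approach the array maximum, and whether that limit shaped the values was not tested.

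Between 9 and 11 the members were few and moved more. Of 7 members 5 were lower with the intact duplex (71.4%), RPL23, RPL26, RPL28, RPS15 and RPS26. Of 4070 other genes in the band 810 were lower, and 40.1% passed the test in either direction. The other 2 were RPL34 and RPS23, with 0.06 and 0.01. These bands were chosen with the values known and the counts are a description.

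The 115 probe sets of the members did not always move together, and 36 members had more than 1. Of the 56 that did not stand for a gene, 5 were at least 1.5-fold below both mock arrays with the intact duplex, of RPL27A (2 of them), RPL28, RPL32 and RPS6, and 1 was above, of RPS29. Of all 52377 probe sets, 9.18% were lower and 11.1% higher by that rule. With the segmented duplex 3 were below, of RPL27A, RPL28 and RPS6, and 1 was above, of RPS29, against 5.1% lower and 5.65% higher.

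RPS29, a small subunit protein, had a second RefSeq transcript probe set at 10.19 with the segmented duplex and 10.42 with the intact duplex, against 9.19 and 8.93 in mock, so both duplex arrays were above both mock arrays. The differences were 1.13 and 1.36 there, and 0.05 and 0.06 for the brightest probe set. With the mean of its probe sets standing for the gene, RPS29 was higher with the intact duplex, by 0.52 (limma adjusted p = 0.0453). RPL27A, a large subunit protein, had a probe set with differences of -1.65 with the segmented duplex and -1.93 with the intact duplex, where its brightest had -0.24 and -0.44. With the mean of its 3 probe sets RPL27A was lower with both duplexes, with differences of -0.81 for the segmented duplex (limma adjusted p = 0.0435) and, for the intact duplex, -1.12 (limma adjusted p = 0.00957). RPS6, the small subunit protein phosphorylated downstream of mTORC1, had 3 probe sets within 0.06 of mock and a dimmer one with -0.80 and -0.89. Its dimmest probe set had -0.155 with the segmented and -0.303 with the intact duplex. What the other probe sets of these genes read was not tested.

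**Figure D3:**
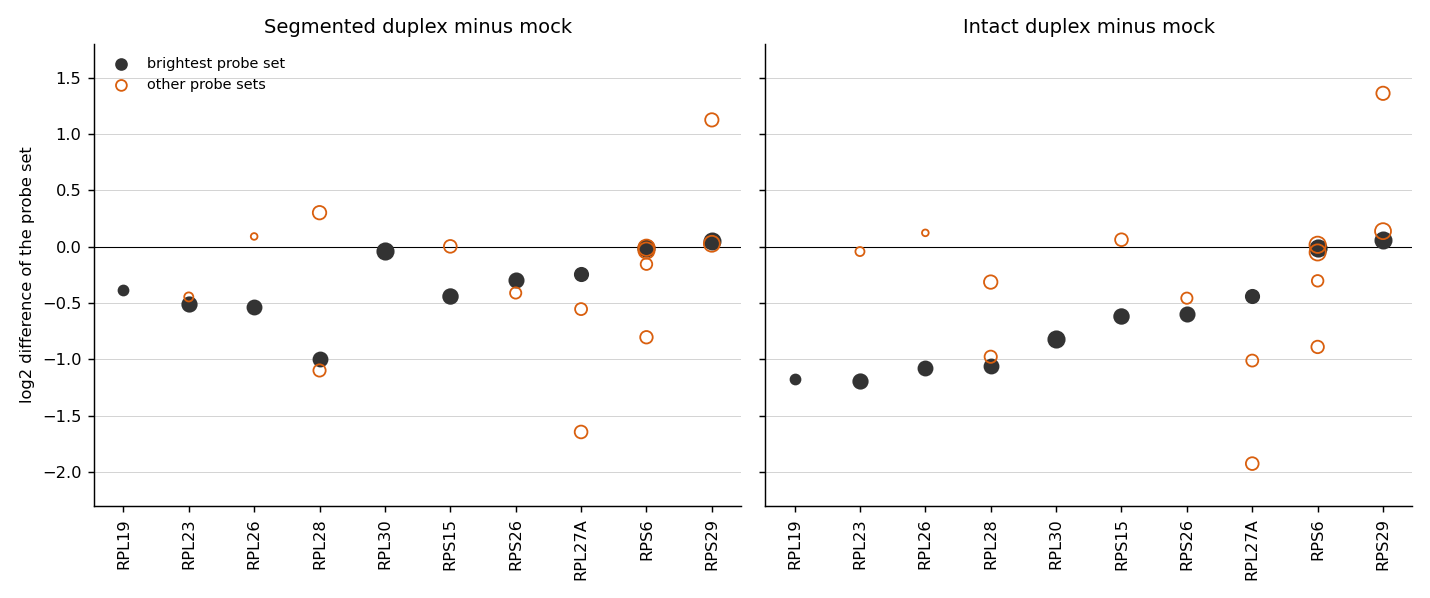
Log2 difference from mock of every probe set of 10 ribosomal protein genes, with filled points for the brightest probe set, which stood for the gene, and open circles for the others; the point size grows with the level. RPL27A, RPS6 and RPS29 have a probe set that departs by about 0.8 or more from a brightest one that stayed within 0.5 of mock.

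By place in the ribosome, the measured stalk protein, RPLP2, which helps recruit elongation factors, had 0.07 with the segmented duplex and -0.03 with the intact duplex, and the other 3 stalk genes are not analysed here. RPL5 and RPL11, which bind 5S ribosomal RNA and can restrain MDM2, had -0.01 and 0.04 with the segmented duplex and 0.07 and 0.00 with the intact duplex. Of 8 exit tunnel genes 2 were lower with the intact duplex, RPL19 and RPL26, and of 10 genes of the small subunit's head 1 was, RPS15. Of 17 measured genes mutated in Diamond-Blackfan anemia, a red cell disorder, 2 were lower, RPS26 and RPL26. These counts stand beside 10.4% of all genes lower with the intact duplex, and lists this short cannot be set apart from it. None of these lists had a member past the test with the segmented duplex.

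Outside the rule, 3 of 8 measured paralogs and fusions were lower with the intact duplex, where 10.4% of all genes were. RPL22L1, the paralog of RPL22, had 12.15 with the segmented duplex and 11.01 with the intact duplex, against 12.51 and 12.57 in mock, an intact difference of -1.54 (limma adjusted p = 0.00906). RPS27L, a paralog of RPS27, differed by -0.96 (limma adjusted p = 0.0185), and RPL7L1 by -0.60 (limma adjusted p = 0.0453). RPL3L, RPL10L, RPL36AL, RPL39L and FAU, whose product is cleaved into a ribosomal protein, lay between -0.15 and 0.02. With the mean of its 3 probe sets RPS27L differed by -0.07 and did not pass, and with their median by -1.06 (limma adjusted p = 0.0137). None of the 8 passed with the segmented duplex, where RPS27L had -0.53 and RPL22L1 -0.40.

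None of 18 measured translation factors and other TOP messengers passed with either duplex, with medians of 0.04 with the segmented and 0.03 with the intact duplex. NPM1, a nucleolar chaperone, had -0.18 with the segmented and -0.39 with the intact duplex, and TMA7 had 0.50 and 0.44.

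Of 31 measured ribosome biogenesis genes, which make and assemble the ribosome, 8 were lower and 0 higher with the intact duplex, where 10.4% of all genes were lower and 14.5% higher, and the list's median was -0.37, against 0.02 over all genes. With the segmented duplex 1 was lower, where 2.68% of all genes were, and the median was -0.23, against 0.01. These counts were larger under other settings, reaching 20 lower and 1 higher with the intact duplex and 15 lower with the segmented duplex under the trended, robust prior. That prior also raised the share of all genes past the test in either direction, to 39.4% and 27.4%. The list's median level was 10.82, and genes at such levels passed more often than genes in general. Without that prior, 810 of 4070 other genes at a mean level of 9 to 11 were lower with the intact duplex. With the segmented duplex 247 of them were lower. The list was not matched for level. DKC1, the pseudouridine synthase of the box H/ACA particles, had 10.06 with the segmented duplex and 9.13 with the intact duplex, against 11.02 and 10.99 in mock. Both duplex arrays lay below mock, with differences of -0.94 for the segmented duplex (limma adjusted p = 0.0421) and -1.87 for the intact duplex (limma adjusted p = 0.00828). DDX21, an RNA helicase of the nucleolus, NIP7, a large subunit assembly factor, and GAR1, a partner of DKC1, had intact differences of -1.24, -1.15 and -0.92.

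Among 15 genes of mTORC1 and MYC control, 4 were lower and 2 higher with the intact duplex, where 10.4% of all genes were lower and 14.5% higher. With the segmented duplex 1 was lower, where 2.68% of all genes were. Under the trended, robust prior 5 were lower and 6 higher with the intact duplex, and 4 lower and 3 higher with the segmented duplex. Of all genes, 39.4% and 27.4% passed in either direction under that prior. This list's median level was 10.39. Without that prior, 40.1% of 4070 other genes at a mean level of 9 to 11 passed in either direction with the intact duplex. Of these, 810 were lower. MYC had 10.33 with the segmented duplex and 10.06 with the intact duplex, against 11.51 and 11.32 in mock. Both were below mock, with differences of -1.08 for the segmented duplex (limma adjusted p = 0.0446) and -1.35 for the intact duplex (limma adjusted p = 0.0126). EIF4EBP1, a translation repressor inhibited by mTORC1, had an intact difference of -1.66 and LARP4 of -1.11, while TSC1, a brake on mTORC1, had 0.71. MTOR, with 0.25 and 0.40, and LARP1, with -0.28 and -0.35, for the segmented and the intact duplex, did not pass.

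**Figure D4:**
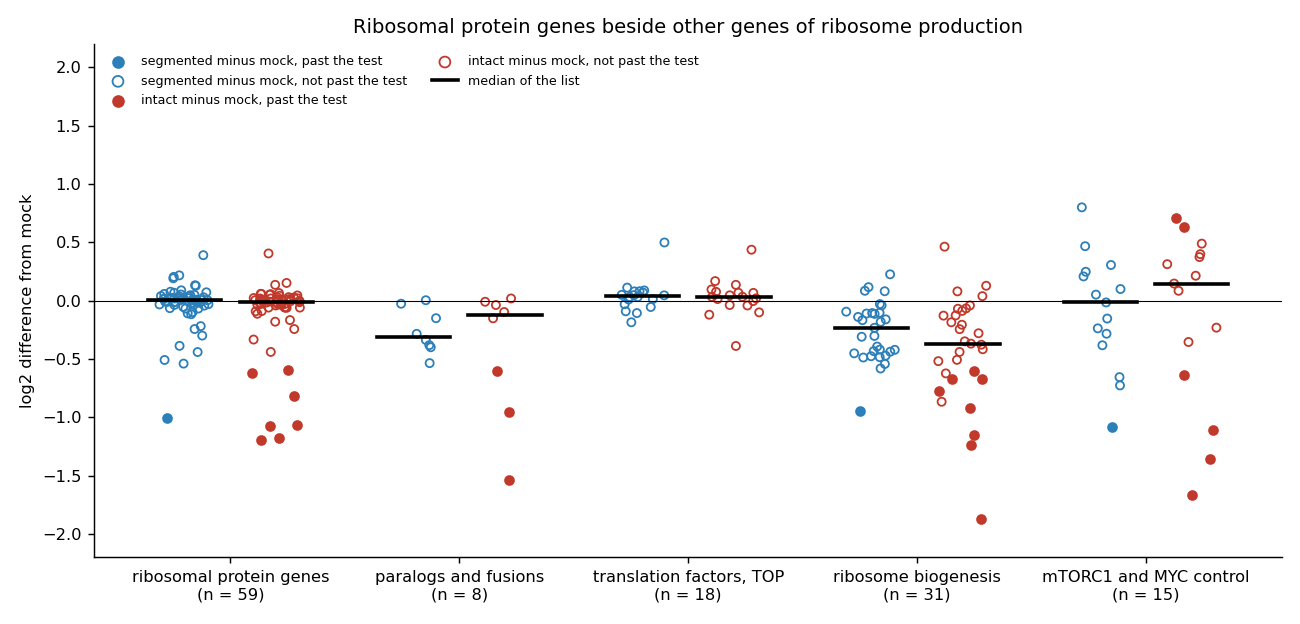
Log2 difference from mock of each gene in 5 lists, segmented duplex in blue to the left of the intact duplex in red, filled where past the test, with a bar at the list's median. The ribosomal protein bars lie near 0, at 0.004 and -0.013, and the biogenesis bars at -0.23 and -0.37.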

How the data were processed

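Biotin-labelled RNA of 4 samples was read on 1-colour arrays. The deposited table holds linear intensities made with RMA, per the submitters' processing notes, whose version the sources used here do not give. RMA includes quantile normalization, so a shift shared by most genes would be removed. The log2 of each intensity was taken as it stands. The annotation gave 1 gene to 35184 of 52377 probe sets, several to 374 and none to 16819, and those with 1 were used; symbols were updated by Entrez ID to RefSeq GRCh38.p14 (35134 matched, 50 did not). The brightest probe set stood for a gene.

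All 19798 genes were fitted with limma 3.58.1 (R 4.3.3), with 3 group means over 4 arrays and eBayes, 1 residual degree of freedom, and Benjamini-Hochberg adjusted p at 0.05. The test was tried on simulated data. Arrays bear no batch labels. The 10 alternatives are in the closing section.

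The members, the gene lists and the level bands were chosen with earlier results of these data known. Named were all members past the test, the 6 largest differences each way, the 5 highest and 5 lowest levels, the 3 widest mock gaps, members whose probe sets disagree, all stalk, 5S and paralog genes, up to 4 genes of each other list, DICER1, MYC, MTOR and LARP1; not every gene the rule allows is named.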

Additional observations from a re-analysis of the deposited data

Results flagged for a closer look

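For 4 of 59 ribosomal protein genes (6.8%) the segmented and the intact array lay on opposite sides of both mock arrays, as they did for 10.4% of all genes. The segmented minus intact differences were 0.35 for RPL10A, 0.127 for RPS2, -0.036 for RPL14 and -0.02 for RPS3 on the log2 scale. None passed the limma test between the duplexes, which has 1 array on each side. RPL10A passed it with the brightest 20% of genes only (limma adjusted p = 0.01) and with a trended, robust prior (limma adjusted p = 0.0016), and in the other 6 tests its limma adjusted p was 0.102 to 0.394. RPL10A, a large subunit protein, had 13.23 with the segmented duplex and 12.88 with the intact duplex, against 13.21 and 13.20 in mock. Its other 2 probe sets had intact minus mock differences of -0.49 and -0.52, and segmented minus mock differences of -0.12 and -0.23. On both of them the segmented array also lay below both mock arrays, so neither had the duplex arrays on opposite sides. The values of RPL14 and RPS3 differ by less than the error of the fit.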

How the results depend on the processing

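With the intact duplex the 7 members past the test became 12 with a trended, robust prior and 3 with the median of a gene's probe sets, and stayed between 6 and 10 under the other tested alternatives. Of all genes fitted, 39.4% passed with that prior, 24.9% with that median, and 25.3% to 65.5% under the other alternatives. With the segmented duplex the 1 became 5 without the dimmest 40% of genes (57 members left) and 4 with the brightest 20% only (49 members left). It became 4 with 16 added before the log, and 7 with the trended, robust prior. Of all genes fitted, 40.2%, 50.3%, 21.6% and 27.4% passed under these settings. Between the duplexes the 0 became 3, 4, 1 and 5, where 15.6%, 30.4%, 5.75% and 12.2% of all genes passed. Centring arrays on their medians moved the median differences of members to -0.104 (intact), -0.058 (segmented) and 0.051 (segmented minus intact). It shifts every gene of an array by the same amount, and the medians of all genes moved alike, to -0.074, -0.05 and 0.01. The mean of probe sets moved the medians of members to -0.032, -0.01 and 0.042, and the median of probe sets moved the intact one to -0.027. Without 1 mock array, which leaves no test, the medians ranged from -0.025 to 0.0, from -0.008 to 0.001 and at 0.022. RPL19 and RPL30 passed in all 6 and 8 tests run. Each has 1 probe set, so the mean and the median of probe sets could not change their differences. RPL19, with a mean level of 4.66, was absent from the settings limited to brighter genes. RPL23 and RPL26 were lost with the mean or median of probe sets, RPL28 with the median (adjusted p = 0.198, and 0.613 for the segmented duplex, where the mean gave 0.0812), RPS15 with either (0.179 and 0.201) and with further quantile normalization (0.0506), and RPS26 with the median (0.051), all limma. The 8 biogenesis genes past the test with the intact duplex, all lower, became 17 lower and 1 higher without the dimmest genes, 14 lower (of 21 left) with the brightest only, 16 lower with 16 added, and 20 lower and 1 higher with the trended, robust prior. Of all genes, 58.5%, 65.5%, 35.5% and 39.4% passed in either direction under these settings. The 1 lower with the segmented duplex became 12, 9, 10 and 15, all lower, where 40.2%, 50.3%, 21.6% and 27.4% of all genes passed. The 6 mTORC1 and MYC genes past the test with the intact duplex became 5 to 11, and the 1 with the segmented duplex 2 to 7. Across the tested alternatives 24.9% to 65.5% of all genes passed with the intact duplex and 6.59% to 50.3% with the segmented duplex. The 3 paralogs became 1 with the mean of probe sets, where 25.3% of all genes passed. The 0 with the segmented duplex reached 3 with the brightest genes only and with the trended, robust prior, where 50.3% and 27.4% of all genes passed. With the intact duplex RPS6KB1 had 0.214 and turned to -0.617 and -1.527, and MAX had 0.085 and turned to -0.955 and -0.671, with the mean and median of probe sets; the cause was not tested. No paired analysis was possible because each duplex has 1 array and the mock numbers match none. Whether signal near the array maximum limits the differences of the brightest genes was not tested.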
